A study of Mus musculus with 9 samples.

Results

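The genes described here are 51 mouse regulators of pre-mRNA splicing, chosen by symbol from the 53801 genes of the count table. They are 11 SR proteins (Srsf genes), 2 SR-like Tra2 genes, 4 Clk kinases, 20 hnRNPs, 3 Ptbp genes, 3 Mbnl genes, 6 Celf genes and 2 Esrp genes, each with a sum of at least 1 CPM (counts scaled to a common library total) over all libraries. All 51 are protein coding, and all 51 passed the filter on low counts and were among the 22452 genes tested. SR proteins bind exons through RNA recognition motifs and recruit the splicing machinery through domains rich in arginine and serine, which Clk kinases phosphorylate in the nucleus. The hnRNPs coat nascent transcripts and often keep the machinery away from the sites they cover, while the Mbnl, Celf, Ptbp and Esrp proteins set splicing patterns particular to a tissue or a stage of development. PRMT5 is the enzyme that places symmetric dimethylarginine on Sm proteins of the spliceosome and on several RNA-binding proteins, SRSF1 and hnRNP A1 among them.

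The libraries came from cultured mouse spermatogonial stem cells (SSCs) of Prmt5 flox/flox; Rosa26-CreERT2 mice, in which 4-hydroxytamoxifen (4OHT) switches on a ubiquitously expressed Cre recombinase and deletes Prmt5. All 9 libraries were from cells given 4OHT at 1 µM: 3 with 4OHT alone, 3 that also overexpressed the catalytically dead PRMT5 (E444Q), and 3 that also overexpressed PRMT5 (WT). The labels abbreviate the constructs as MU and OE, which were read as E444Q and WT, and no library of cells with intact Prmt5 was analysed here. The groups are called 4OHT, E444Q and WT below. The labels name a single SSC line and do not say whether replicates were separate cultures, so the p-values below measure the spread between these libraries, which may be technical.

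Total counts ranged from 78751996 to 95370711 in 4OHT, from 192033300 to 365719548 with E444Q and from 79941857 to 154557863 with WT. All E444Q libraries were thus deeper than the others, while the ranges of 4OHT and WT overlapped in part. Prmt5 stood at 30.3 ± 1.92 CPM in 4OHT, 146 ± 0.957 with E444Q and 1076 ± 7.61 with WT (SD, n = 3). Both groups with a construct were thus above 4OHT. The labels give no order between the constructs, whose Prmt5 levels differed (E444Q minus WT, log2 fold change -2.88, edgeR adjusted p = 1.09e-12), and these values do not separate endogenous from introduced transcripts. Germ cell markers were present in every library, with a summed level of 2530 to 2620 CPM over 19 genes in 4OHT, 3890 to 4010 with E444Q and 4180 to 4230 with WT. With each construct 12 of the 19 were higher: Ddx4, Dazl, Dnd1, Sall4, Uchl1, Lin28a, Foxo1, Tex101, Sycp3, Mael, Kit and Stra8. The 6 lower were Zbtb16, Gfra1, Etv5, Nanos2, Nanos3 and Pou5f1, and Id4 did not pass. Etv5, a factor of SSC self-renewal, had a mean of 126 CPM in 4OHT, 13.8 with E444Q and 12.1 with WT, and Kit, a receptor of differentiating spermatogonia, had 16.3, 81.1 and 81.7 CPM. Genes whose proteins the paper used to mark undifferentiated spermatogonia differed in direction. Zbtb16 (PLZF) had 291, 183 and 200 CPM, Uchl1 391, 706 and 724 CPM, and Id4 27.4, 26.2 and 25.4 CPM. The summed level of 14 fibroblast markers, which the feeder layer could supply, was 12100 to 14800, 6080 to 6170 and 4760 to 4860 CPM in the same order. That of 15 macrophage markers was 191 to 203, 1190 to 1220 and 2300 to 2420 CPM. Markers of Sertoli cells (8 genes, with Amh and Rhox5 under 1 CPM in every library), Leydig cells (6 genes, with Hsd3b1 and Lhcgr at 0) and neurons (7 genes) summed to between 4.51 and 39.6 CPM in each library. The part of these marker shifts in the results below was not tested, and in bulk RNA fewer cells of a type and less RNA per cell cannot be told apart.

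As a group, the splicing regulators took a larger share of the library when either construct was present. Their summed level was 10122 ± 347 CPM in 4OHT, 11625 ± 182 with E444Q and 12094 ± 12.4 with WT (SD, n = 3). These CPM, like the levels given for single genes, were scaled by TMM. By total counts alone the sums were 9664, 11993 and 12272 CPM, which is 0.966%, 1.2% and 1.23% of all counts. The hnRNPs made up most of it, at 6594 ± 242, 7592 ± 93.1 and 7992 ± 22.3 CPM. For SR proteins the sums were 1922 ± 109, 2313 ± 70.3 and 2361 ± 33.8 CPM. Neither sum overlapped between the 4OHT libraries and those with a construct. The Mbnl genes went the other way, from 226 ± 6.3 CPM in 4OHT to 147 ± 4.02 and 151 ± 5.82, while the Ptbp genes summed to 607 ± 24.3, 578 ± 5.19 and 603 ± 2.06.

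Per kilobase of coding transcript, Hnrnpk was the most abundant regulator in every group, at 688 CPM per kilobase in 4OHT, 709 with E444Q and 717 with WT. That rank rests on its median coding transcript of 952 bases, where its longest had 2970. In CPM not divided by length Hnrnpu was higher, with means of 787, 953 and 1003. Hnrnpa2b1, which packages nascent RNA together with Hnrnpa1, came after Hnrnpk per kilobase with the constructs, at 496 and 540 against 326 in 4OHT. Of the SR proteins, Srsf9 was highest with WT at 213 CPM per kilobase, where Srsf2 stood at 195 and Srsf5 at 193. Srsf12 was lowest, at 2.37 to 3.12 CPM per kilobase over the 3 groups. Celf3, Celf6 and Esrp2 were among the 4 lowest regulators in every group, beside Srsf12 in 4OHT and Celf5 with either construct, and Celf6 reached only 0.103 to 0.168 CPM per kilobase. Ptbp1, the form of the polypyrimidine tract protein found in most tissues, stood at 233 to 255 CPM per kilobase and its relative Ptbp2, known from neurons and germ cells, at 36.4 to 39.9.

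**Figure D1:**
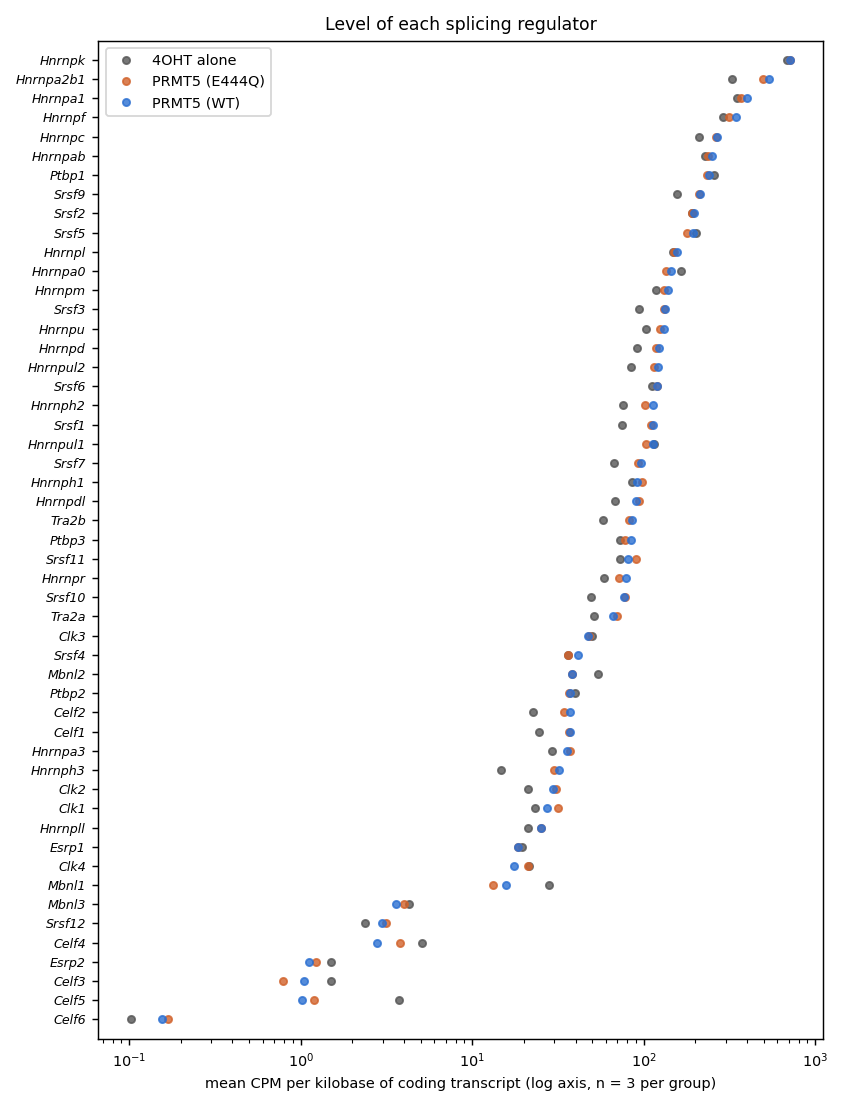
Mean level of each of the 51 splicing regulators in CPM per kilobase of coding transcript, on a log axis, with 1 dot for each group of 3 libraries (grey for 4OHT alone, orange for E444Q, blue for WT). Hnrnpk leads in every group, and Celf6 is last at 0.103 to 0.168.

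The comparison of each construct with 4OHT asked how the splicing regulators stood when a PRMT5 construct was present. The paper brought in the constructs by lentivirus, and no library here was labelled as having an empty vector. Effects of the virus and of PRMT5 therefore cannot be told apart in either comparison. With WT, 29 of the 51 were higher and 7 were lower in edgeR's quasi-likelihood test at an adjusted p under 0.05, where 57.8% of all genes tested passed (29.9% higher and 27.9% lower). With E444Q, 27 were higher and 6 lower, where 56.0% of all genes passed (29.5% higher and 26.5% lower). The members thus lay on the higher side more than genes at large: 56.9% and 52.9% of them were higher, and 13.7% and 11.8% were lower. Their median log2 fold change was 0.22 for WT against 0.018 over all genes, and 0.20 for E444Q against 0.044. Most of the shifts were small, since 9 members with WT and 7 with E444Q passed with a change of at least 1.5-fold, where 35.3% and 32.9% of all genes did. Both comparisons rest on the same 3 libraries in 4OHT.

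Abundant genes passed more often, so the shares were also taken over the 7247 genes with a mean of at least 30 CPM, a limit chosen after the data were seen. Among them 40.5% were higher and 36.6% lower with WT, and of the 44 members at that level 28 were higher and 3 lower. With E444Q the shares were 37.7% and 37.4%, and the members' counts were 26 and 4. The libraries of the 2 groups did not overlap for 39 of 51 members with WT, where 61.6% of all genes did not, and for 37 with E444Q, where 63.9% did not. Of the calls, 24 higher and 4 lower held under each of 16 alternative fits with WT, and the same numbers with E444Q. Scaling by total counts, which moves the median of all genes by 0.113 (log2) with E444Q and 0.0881 with WT, gave 33 higher and 4 lower, and 34 higher and 5 lower. The counts with E444Q were 26 higher and 10 lower with RLE size factors.

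**Figure D2:**
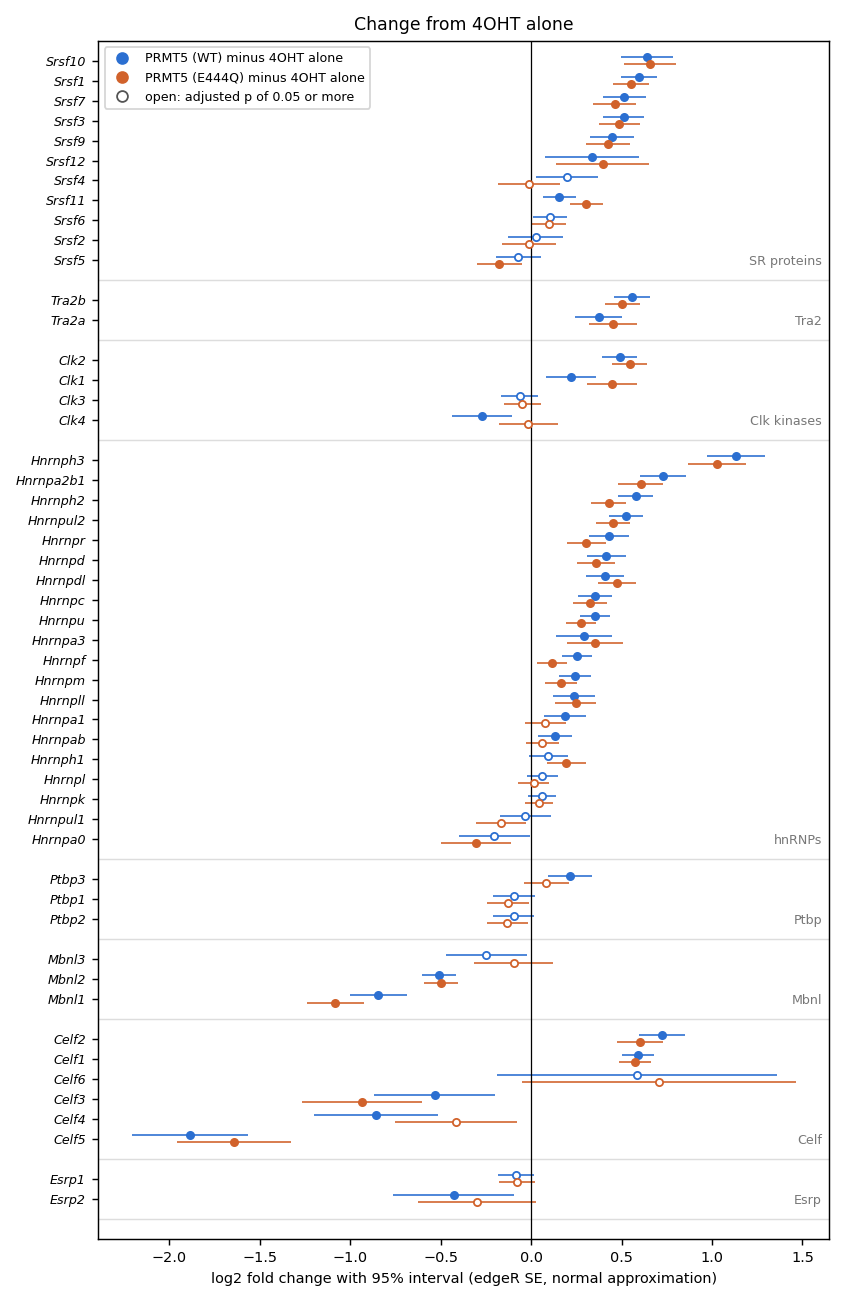
Log2 fold change of each splicing regulator against 4OHT with its 95% interval (edgeR standard error, normal approximation), blue for WT and orange for E444Q, 3 libraries in each group. Filled dots passed an adjusted p of 0.05. Hnrnph3 lies farthest to the right (1.13 and 1.03) and Celf5 farthest to the left (-1.89 and -1.64).

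Among SR proteins, 7 of 11 were higher with each construct. Srsf1, a general splicing activator that also acts in mRNA export and translation, was measured at 226, 230 and 206 CPM in 4OHT, 325, 313 and 335 with E444Q, and 339, 327 and 335 with WT. Every library with a construct was above every library without. It rose 1.47-fold with E444Q (log2 fold change 0.55 ± 0.051 SE, edgeR adjusted p = 4.81e-07) and 1.51-fold with WT (0.60 ± 0.051, adjusted p = 2.09e-07). Srsf10, an SR protein that acts as a repressor when it loses its phosphates, had 169, 151 and 132 CPM in 4OHT, 242, 227 and 243 with E444Q, and 243, 230 and 232 with WT. Again no 4OHT library reached a library with a construct, and the rise was 1.58-fold (0.66 ± 0.072, edgeR adjusted p = 2.88e-06) and 1.56-fold (0.64 ± 0.072, adjusted p = 3.47e-06).

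Srsf3, the smallest SR protein and an mRNA export adaptor, had 256, 256 and 222 CPM in 4OHT and between 335 and 361 CPM in the 6 libraries with a construct, a rise of 1.40-fold with E444Q and 1.43-fold with WT (edgeR adjusted p = 6.09e-06 and 3.53e-06). Srsf7, its close relative, rose by 0.46 and 0.52 on the log2 scale, and Srsf9 by 0.42 and 0.45. Srsf11 and Srsf12 also passed with both constructs. The call of Srsf11 with WT was lost without WT replicate 3 and in a fit to the 2 groups (edgeR adjusted p = 0.0809 and 0.0557). The call of Srsf12 was lost without 4OHT replicate 2, E444Q replicate 1 or E444Q replicate 2 for E444Q (edgeR adjusted p = 0.0524, 0.117 and 0.0505), and in 11 of 16 alternative fits for WT.

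The other SR proteins did not move together with these. Srsf2, an exon definition factor that also acts in transcription, lay at 277 to 354 CPM in 4OHT and at 295 to 335 CPM with the constructs, with log2 fold changes of -0.011 and 0.025 and overlap between the groups. Srsf6 had 224 to 228 CPM in 4OHT, 228 to 250 with E444Q and 238 to 251 with WT, without overlap with 4OHT, but did not pass, at 0.099 and 0.11. Under scaling by total counts it was at 0.21 and 0.19 and passed (edgeR adjusted p = 0.00129 and 0.00231), and with E444Q it also passed without the filter on low counts (0.0261). Srsf4 had 70.8, 79.7 and 94.7 CPM in 4OHT, and did not pass with WT (log2 fold change 0.20, edgeR adjusted p = 0.0692). It did in 5 of 16 alternative fits: without 4OHT replicate 3 (0.31, edgeR adjusted p = 0.00143), without WT replicate 1 (0.0434), with the replicate number as a block (0.0342), without the filter on low counts (0.0469) and under scaling by total counts (0.29, adjusted p = 0.00845). Srsf5 was called lower with E444Q only (-0.18 ± 0.063, edgeR adjusted p = 0.0284, and -0.071 with WT), and that call was lost in 8 of 16 alternative fits, with -0.11 and an adjusted p of 0.175 without 4OHT replicate 2. Without 4OHT replicate 3 Srsf5 was also called lower with WT (-0.14, edgeR adjusted p = 0.0336). The difference of Srsf5 between the constructs did not pass.

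Both Tra2 genes, which bind GA-rich exonic enhancers beside SR proteins, were higher with both constructs. Tra2b had 145, 140 and 129 CPM in 4OHT, 197, 190 and 201 with E444Q, and 203, 205 and 201 with WT. The libraries with a construct were all above those without, and the rise was 1.42-fold (log2 0.50 ± 0.051, edgeR adjusted p = 1.12e-06) and 1.47-fold (0.56 ± 0.051, adjusted p = 3.73e-07). Tra2a rose by 0.45 and 0.37 on the log2 scale.

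The 4 Clk kinases, which phosphorylate SR proteins in the nucleus, were split. Clk2 had 44.6, 45.0 and 44.6 CPM in 4OHT and between 61.6 and 68.0 CPM with a construct, without overlap, and rose 1.46-fold with E444Q and 1.40-fold with WT (edgeR adjusted p = 4.35e-07 and 1.20e-06). Clk1 had 45.6, 41.8 and 38.1 CPM in 4OHT, 55.0, 58.1 and 57.9 with E444Q, and 45.4, 50.3 and 50.4 with WT. The libraries with WT thus overlapped the 4OHT libraries, and those with E444Q were above all others. Clk1 rose by 0.45 ± 0.069 with E444Q (edgeR adjusted p = 7.56e-05) and by 0.22 ± 0.07 with WT (adjusted p = 0.0145). The call with WT was lost without 4OHT replicate 3, WT replicate 2 or WT replicate 3 (edgeR adjusted p = 0.0602, 0.0584 and 0.0794). It was also lost in a fit to the 2 groups (edgeR adjusted p = 0.051).

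Clk4, the nearest relative of Clk1, had 36.4, 32.6 and 28.6 CPM in 4OHT, 31.5, 31.6 and 33.3 with E444Q, and 27.9, 24.8 and 27.9 with WT. It fell by 0.27 ± 0.084 on the log2 scale with WT (edgeR adjusted p = 0.0128), a call lost without WT replicate 2 (-0.21, adjusted p = 0.0947) and under scaling by total counts (-0.19, adjusted p = 0.087). With E444Q its log2 fold change was -0.016, which turned to 0.095 under scaling by total counts. Clk3 did not pass with either construct, at -0.047 and -0.063, though it did with WT without 4OHT replicate 1 (-0.12, edgeR adjusted p = 0.0385).

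Of the 20 hnRNPs, 15 were higher with WT in the edgeR test and the other 5 did not pass, and 14 were higher and 1 lower with E444Q. The call of Hnrnpab with WT (0.13, edgeR adjusted p = 0.0272) was lost with RLE size factors, counts divided by 4 and a fit to the 2 groups (0.0551, 0.0904 and 0.101). Several fits that left out a single library lost it too. With E444Q Hnrnpab was at 0.062 and passed only under scaling by total counts (0.17, edgeR adjusted p = 0.00573). Hnrnph3, a member of the family that binds runs of G, showed the largest rise of all 51 regulators. It had 33.3, 35.5 and 26.9 CPM in 4OHT, 64.5, 63.5 and 67.1 with E444Q, and 71.0, 70.7 and 68.0 with WT. The groups with a construct lay far above the group without, at 2.04-fold (log2 1.03 ± 0.081, edgeR adjusted p = 1.04e-07) and 2.19-fold (1.13 ± 0.082, adjusted p = 3.65e-08). Its relative Hnrnph2 rose by 0.43 and 0.58 on the log2 scale, whereas Hnrnph1 rose by 0.19 with E444Q and was at 0.096 with WT, where it did not pass except under scaling by total counts (0.18, edgeR adjusted p = 0.0156).

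Hnrnpa2b1, which also sorts RNA into transport granules, had 556, 577 and 473 CPM in 4OHT, 808, 826 and 808 with E444Q, and 920, 893 and 847 with WT. The 3 groups followed each other without overlap, and the rise over 4OHT was 1.52-fold (log2 0.60 ± 0.065, edgeR adjusted p = 2.21e-06) and 1.66-fold (0.73 ± 0.065, adjusted p = 3.11e-07). Hnrnpa1, its partner and a repressor of exons, stayed nearer to its starting level, at 635, 636 and 549 CPM in 4OHT, 669, 619 and 634 with E444Q, and 678, 711 and 683 with WT. It rose by 0.19 with WT (edgeR adjusted p = 0.0137, and 0.0551 without WT replicate 2), and its log2 fold change with E444Q was 0.078 with overlapping libraries, which passed under scaling by total counts (0.19, edgeR adjusted p = 0.0168).

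Hnrnpul2, Hnrnpdl, Hnrnpd, Hnrnpr, Hnrnpc and Hnrnpu, the last a scaffold protein of the nucleus, all rose with both constructs, by 0.28 to 0.47 on the log2 scale with E444Q and 0.35 to 0.53 with WT. Hnrnpf, Hnrnpm, Hnrnpll and Hnrnpa3 also passed with both, and the calls of Hnrnpf (0.12, adjusted p = 0.0314 in edgeR) and Hnrnpm (0.17, adjusted p = 0.00538) with E444Q were lost without E444Q replicate 3 (adjusted p = 0.23 and 0.0506). That of Hnrnpf was also lost without 4OHT replicate 2, E444Q replicate 2 or WT replicate 3 (edgeR adjusted p = 0.0739, 0.0919 and 0.0777). With all libraries of the groups compared kept, it was lost with RLE size factors, counts divided by 4 and a fit to the 2 groups (edgeR adjusted p = 0.105, 0.0895 and 0.0592). Hnrnpk, which binds C-rich sequence and was the most abundant regulator per kilobase, lay between 647 and 687 CPM in all 9 libraries. Its log2 fold changes of 0.044 ± 0.039 and 0.059 ± 0.039 did not pass (edgeR adjusted p = 0.367 and 0.217). Under scaling by total counts these were 0.16 and 0.15 and passed. Hnrnpl, a repressor that binds CA repeats, was at 0.015 and 0.063 and did not pass, and was at 0.13 and 0.15 under scaling by total counts, where it did (edgeR adjusted p = 0.0153 and 0.00552).

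The hnRNP that was called lower, with E444Q, was Hnrnpa0, which binds AU-rich elements. It had 428, 538 and 365 CPM in 4OHT, 362, 367 and 349 with E444Q, and 371, 383 and 402 with WT. The spread in 4OHT was wide, and the fall with E444Q (-0.30 ± 0.1, edgeR adjusted p = 0.0188) was lost without 4OHT replicate 2 (-0.13, adjusted p = 0.142) or E444Q replicate 3 (-0.30, adjusted p = 0.0542) and under scaling by total counts (-0.19, adjusted p = 0.131). The call was also lost without the filter on low counts and in a fit to the 2 groups (edgeR adjusted p = 0.0674 and 0.0516). With WT Hnrnpa0 was at -0.20 and did not pass, but did without 4OHT replicate 3 (-0.34, edgeR adjusted p = 0.00136) and with counts divided by 4 (adjusted p = 0.0453). Hnrnpul1, a relative of Hnrnpu, had a log2 fold change of -0.17 with E444Q and did not pass (edgeR adjusted p = 0.0633), but was called lower in 5 of 16 alternative fits. These were RLE size factors, counts divided by 4, the replicate block and the fit without 4OHT replicate 1 in edgeR (adjusted p = 0.0333, 0.021, 0.0443 and 0.00355), and DESeq2 (0.0412).

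**Figure D3:**
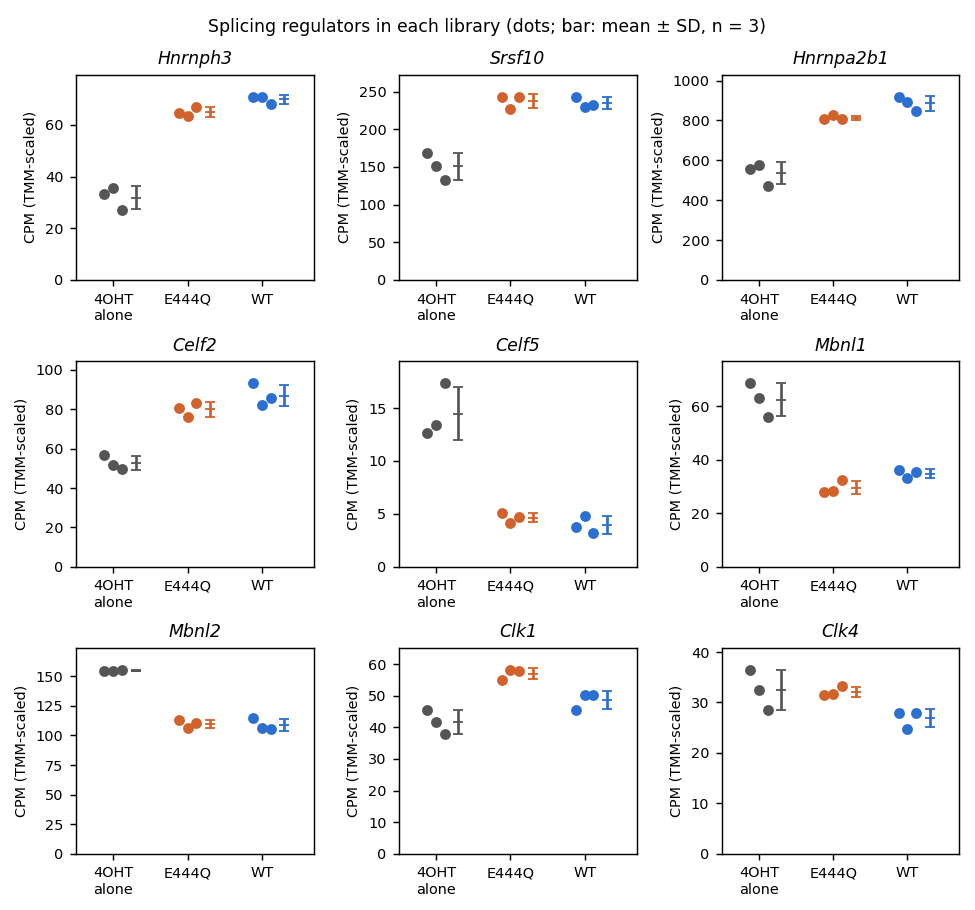
TMM-scaled CPM of 9 splicing regulators in each library (dots) with the mean and SD of each group (bars, n = 3), on linear axes that start at 0. In Hnrnph3, Srsf10, Hnrnpa2b1 and Celf2 each library with a construct is above the 4OHT libraries, and in Celf5, Mbnl1 and Mbnl2 each is below. Clk1 and Clk4 are higher in each library with E444Q than with WT.

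The tissue-restricted regulators moved in several directions. Mbnl1 and Mbnl2, whose proteins promote adult splicing patterns, fell with both constructs. Mbnl1 had 68.6, 63.0 and 56.2 CPM in 4OHT, 28.0, 28.3 and 32.4 with E444Q, and 36.1, 33.1 and 35.3 with WT. The 3 groups did not overlap, and the level was 2.12-fold lower with E444Q (log2 -1.08 ± 0.08, edgeR adjusted p = 5.11e-08) and 1.79-fold lower with WT (-0.84 ± 0.08, adjusted p = 5.91e-07). Mbnl2 had 155 CPM in each 4OHT library and between 105 and 115 CPM in those with a construct, a fall of 0.50 ± 0.048 and 0.51 ± 0.049 on the log2 scale (edgeR adjusted p = 8.61e-07 and 6.31e-07). Mbnl3, the X-linked member, was at 8.19 to 8.96 CPM in 4OHT, 7.17 to 8.96 with E444Q and 6.49 to 7.89 with WT. The libraries with WT were below those in 4OHT without overlap. It did not pass with either construct (-0.096 and -0.25), but did with WT with counts divided by 4 (-0.28, edgeR adjusted p = 0.0439).

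The Celf genes, which act against Mbnl on many exons, were split between broadly and neurally expressed members. Celf1 rose by 0.57 ± 0.044 and 0.59 ± 0.044 on the log2 scale, from 184 to 190 CPM in the 4OHT libraries to 269 to 288 CPM in the others (edgeR adjusted p = 7.75e-08 and 5.09e-08). Celf2 had 56.7, 51.5 and 49.7 CPM in 4OHT, 80.5, 76.1 and 83.2 with E444Q, and 93.2, 82.4 and 85.6 with WT, a rise of 1.52-fold and 1.65-fold (edgeR adjusted p = 2.08e-06 and 3.03e-07). For both genes no library with a construct came near the 4OHT libraries.

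Celf5, which is known from brain, had 12.6, 13.4 and 17.3 CPM in 4OHT, 5.04, 4.17 and 4.71 with E444Q, and 3.80, 4.83 and 3.16 with WT. This was the largest fall among the regulators, 3.12-fold (log2 -1.64 ± 0.16, edgeR adjusted p = 8.57e-07) and 3.70-fold (-1.89 ± 0.16, adjusted p = 2.49e-07), without overlap. Celf3 was near 3.60 CPM in 4OHT and fell by 0.93 with E444Q (edgeR adjusted p = 0.000296) and by 0.53 with WT (adjusted p = 0.0155), the latter lost without 4OHT replicate 2 or WT replicate 2 (adjusted p = 0.0668 and 0.0801). Celf4 had 8.91, 15.5 and 15.6 CPM in 4OHT, 10.9, 9.03 and 9.98 with E444Q, and 6.60, 7.48 and 7.98 with WT. It fell by 0.85 with WT (edgeR adjusted p = 0.000788), and for E444Q it did not pass, at -0.42 with an adjusted p of 0.0533. It did pass in 4 of 16 alternative fits: without 4OHT replicate 1 (-0.65, edgeR adjusted p = 0.000248), with RLE size factors (0.0401), with counts divided by 4 (0.02) and with DESeq2 (0.0318). Celf6 stayed under 1 CPM and did not pass. The summed level of the neuron markers was 37.5 to 39.6 CPM in 4OHT, 33.3 to 35.4 with E444Q and 30.9 to 32.7 with WT. Of these 7 genes, 2 were higher and 3 lower with E444Q, and 2 higher and 4 lower with WT. Rbfox3 and Syt1 were the 2 higher, with means of 5.24, 12.9 and 13.4 CPM and of 1.01, 3.22 and 3.16 CPM in the same order of groups. The part of these markers in the fall of Celf3, Celf4 and Celf5 was not tested.

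Ptbp1, which represses neural exons, was at 361, 360 and 423 CPM in 4OHT, 345 to 351 with E444Q and 351 to 361 with WT. Ptbp2 was at 65.6 to 74.3, 62.4 to 64.5 and 62.5 to 68.7 CPM. For both genes the libraries with E444Q were below those in 4OHT without overlap, and those with WT overlapped them. Neither passed, with log2 fold changes of -0.13 for both genes with E444Q and of -0.095 and -0.097 with WT. Each of these 4 values passed without some single 4OHT library: that of Ptbp1 without replicate 1 (edgeR adjusted p = 0.021 and 0.0491), and, for E444Q, without replicate 2 (0.0427), and that of Ptbp2 without replicate 3 (0.00944 and 0.0259). With all libraries kept, the values for E444Q passed with RLE size factors (edgeR adjusted p = 0.0358 for Ptbp1 and 0.0295 for Ptbp2) and counts divided by 4 (0.0229 and 0.021), and that of Ptbp2 with DESeq2 (0.0483). Ptbp3 had 173, 154 and 143 CPM in 4OHT and 184, 180 and 180 with WT, a rise of 0.21 ± 0.063 (edgeR adjusted p = 0.00983). With E444Q it was at 0.085 and did not pass, and passed without 4OHT replicate 1 (0.15, edgeR adjusted p = 0.0236) and under scaling by total counts (0.20, adjusted p = 0.0212). The epithelial regulator Esrp1 lay between 64.4 and 71.8 CPM in all libraries and did not pass. Esrp2 was far lower at 2.97 to 5.22 CPM, and its call as lower with WT (-0.43, edgeR adjusted p = 0.0448) was lost in 11 of 16 alternative fits, 1 of which left out 4OHT replicate 3 (-0.21, adjusted p = 0.269).

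The DNA before the start sites was read for the members that had moved, from RefSeq windows on build GRCm38.p6, which matched 44 of the 51 genes by symbol. These 44 genes had 72 windows. For each gene the window farthest upstream was taken, and windows at its other annotated starts were not read. The windows shown end at the base before the annotated start and are given in the direction of the gene. Srsf1, Tra2b and Hnrnpa2b1 are shown as regulators that rose with both constructs, and Mbnl1 and Mbnl2 as the pair that fell. Capitals mark matches, on either strand, to 5 short motifs chosen after the data were seen: the GC box GGGCGG, the CCAAT box, the E2F-type site TTTCCCGC, the cyclic AMP response element TGACGTCA and the TATA box TATAAA. Overlapping matches appear as a single run of capitals. The windows lie at chr11:88047123-88047372 (plus strand), chr16:22266006-22266255 (minus strand), chr6:51469895-51470144 (minus strand), chr3:60472580-60472829 (plus strand) and chr14:120275419-120275668 (plus strand), in the order of the lines below. That of Srsf1 also holds part of the noncoding gene 2010015M23Rik on the other strand.
Srsf1: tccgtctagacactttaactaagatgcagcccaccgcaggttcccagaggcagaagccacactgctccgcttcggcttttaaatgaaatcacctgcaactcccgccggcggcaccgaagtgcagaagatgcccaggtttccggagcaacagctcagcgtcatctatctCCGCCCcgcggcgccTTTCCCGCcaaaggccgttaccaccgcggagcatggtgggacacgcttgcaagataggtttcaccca
Tra2b: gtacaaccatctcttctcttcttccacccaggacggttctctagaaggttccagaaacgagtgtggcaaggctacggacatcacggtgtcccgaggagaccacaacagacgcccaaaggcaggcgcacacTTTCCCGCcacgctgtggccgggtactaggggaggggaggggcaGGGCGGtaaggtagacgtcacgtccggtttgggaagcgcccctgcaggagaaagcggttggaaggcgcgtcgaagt
Hnrnpa2b1: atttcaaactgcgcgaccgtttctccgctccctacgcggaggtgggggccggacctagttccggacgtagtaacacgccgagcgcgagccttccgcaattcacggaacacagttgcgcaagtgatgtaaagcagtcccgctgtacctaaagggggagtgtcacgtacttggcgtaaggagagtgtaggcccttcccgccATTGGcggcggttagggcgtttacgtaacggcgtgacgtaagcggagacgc
Mbnl1: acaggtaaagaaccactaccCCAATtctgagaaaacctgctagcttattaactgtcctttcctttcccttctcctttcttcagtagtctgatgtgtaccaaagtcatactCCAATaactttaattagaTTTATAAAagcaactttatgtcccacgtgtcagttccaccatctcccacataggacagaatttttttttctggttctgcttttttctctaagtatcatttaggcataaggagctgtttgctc
Mbnl2: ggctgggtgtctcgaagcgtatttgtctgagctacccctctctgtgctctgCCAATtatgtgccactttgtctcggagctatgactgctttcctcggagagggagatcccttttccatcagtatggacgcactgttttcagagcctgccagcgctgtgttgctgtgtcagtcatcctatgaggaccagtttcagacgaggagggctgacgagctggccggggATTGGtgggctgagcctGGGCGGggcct

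The windows of Srsf1 and Tra2b each held 1 GC box and 1 E2F-type site, and that of Hnrnpa2b1 a CCAAT box. Mbnl2 had a GC box and 2 CCAAT boxes. At the start farthest upstream, Mbnl1 differed from the other 4 by a low GC content of 38.0%, against 57.2% to 60.8%. That window had 2 CCAAT boxes, 2 matches to the TATA box and no GC box. Over the 44 members, 33 windows held a GC box (75.0%), where 55.0% of the windows of 12859 protein-coding genes tested did. Of 27025 windows of the same length, 1 for each gene that had any, 33.0% did. A CCAAT box was in 21 (47.7%, against 36.2% and 34.5%), and the TATA box in 6 (13.6%, against 7.33% and 13.0%). The E2F-type site was in those of Hnrnpul1, Srsf1, Srsf10 and Tra2b (9.09%, against 1.59% and 0.929%), and the cyclic AMP response element in those of Celf6, Clk4 and Tra2a (6.82%, against 2.46% and 1.6%). These matches describe the letters of the windows and do not show that a factor binds there.

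The last comparison, E444Q minus WT, asked whether the splicing regulators depended on the activity of the enzyme. Since the Prmt5 transcript also differed between the groups, at 146 and 1076 CPM, activity and the level of the construct cannot be told apart. No member passed in the edgeR test, where 3.17% of all genes did. At an unadjusted p under 0.05, 4 members were higher and 6 lower with E444Q, 10 of 51, where 12.4% of all genes were past that limit. DESeq2 called 1 member, Hnrnpf. The log2 fold changes ran from -0.40 (Celf3) to 0.44 (Celf4) with a median of -0.033, against 0.008 over all genes. Among genes of at least 30 CPM the medians were closer, at -0.039 for 44 members and -0.024 for all 7247. The libraries of the 2 groups did not overlap for 23 members, 7 higher and 16 lower, where 25.9% of all genes did not overlap (13.0% higher and 12.8% lower). Of the 16 lower, 12 were hnRNPs.

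The hnRNPs were slightly lower with E444Q in most cases, with 16 of 20 estimates below 0 and a median log2 fold change of -0.073. Their summed levels did not overlap, at 7484 to 7652 CPM against 7974 to 8017 CPM. The share of all genes below 0 was not counted. The median was -0.043 for the 85 other splicing genes tested and -0.024 for the 7247 genes of at least 30 CPM. For the 19 germ cell markers it was -0.062, and their sums did not overlap either (3890 to 4010 against 4180 to 4230 CPM). Medians of the fibroblast, Sertoli, Leydig and neuron lists were above 0. Hnrnpf, which binds runs of G, had 462, 467 and 488 CPM with E444Q and 517, 515 and 527 with WT, and the groups did not overlap. Its log2 fold change was -0.14 with a 95% interval of -0.22 to -0.055 (edgeR adjusted p = 0.126, DESeq2 adjusted p = 0.028). Hnrnph2 had 241, 236 and 249 against 276, 265 and 265 CPM, again without overlap (-0.15, interval -0.25 to -0.055, edgeR adjusted p = 0.156). Leaving out 4OHT replicate 3, which enters this test through the shared estimate of the spread, gave both an adjusted p under the limit (0.0398 and 0.0269). Hnrnpa2b1 stood at -0.12 (interval -0.25 to 0.0033, adjusted p = 0.484 in edgeR).

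On the higher side were kinases and an SR protein. The values of Clk1 and Clk4 given above did not overlap between the constructs, with log2 fold changes of 0.23 (interval 0.091 to 0.36, edgeR adjusted p = 0.121) and 0.26 (0.093 to 0.42, adjusted p = 0.155). Srsf11, an SR-related protein of the spliceosome, had 151, 146 and 147 CPM with E444Q and 129, 134 and 138 with WT, without overlap (0.15, interval 0.058 to 0.24, edgeR adjusted p = 0.13). Without 4OHT replicate 3 Clk1, Clk4 and Srsf11 passed (edgeR adjusted p = 0.0285, 0.038 and 0.0426), and without 4OHT replicate 1 Clk1 and Celf4 did (0.0488 and 0.0303). Celf4 was at 0.44 in the full fit (interval 0.099 to 0.78, edgeR adjusted p = 0.287).

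Mbnl1 was lower with E444Q than with WT, without overlap, at -0.24 (interval -0.39 to -0.083, edgeR adjusted p = 0.169), and Srsf4 likewise at -0.21 (-0.38 to -0.039, adjusted p = 0.321). For Srsf1 the interval of the difference was narrow, -0.14 to 0.058, and for Hnrnpk -0.092 to 0.061. A fit to these 6 libraries alone, which takes the spread from them and not from the more variable libraries in 4OHT, called 5 members higher and 7 lower, where 6.72% of all genes passed. Those higher were Clk1, Clk4, Srsf11, Hnrnph1 and Celf4 (edgeR adjusted p = 0.0102 to 0.0389). Those lower were Hnrnpul1, Hnrnph2, Hnrnpf, Srsf4, Hnrnpa2b1, Ptbp3 and Mbnl1 (edgeR adjusted p = 0.0114 to 0.0394). All 12 differences were below 1.5-fold in size. Fibroblast markers (13 of 14 higher) and macrophage markers (12 of 15 lower) differed between the constructs as well, and their part in these differences was not tested.

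**Figure D4:**
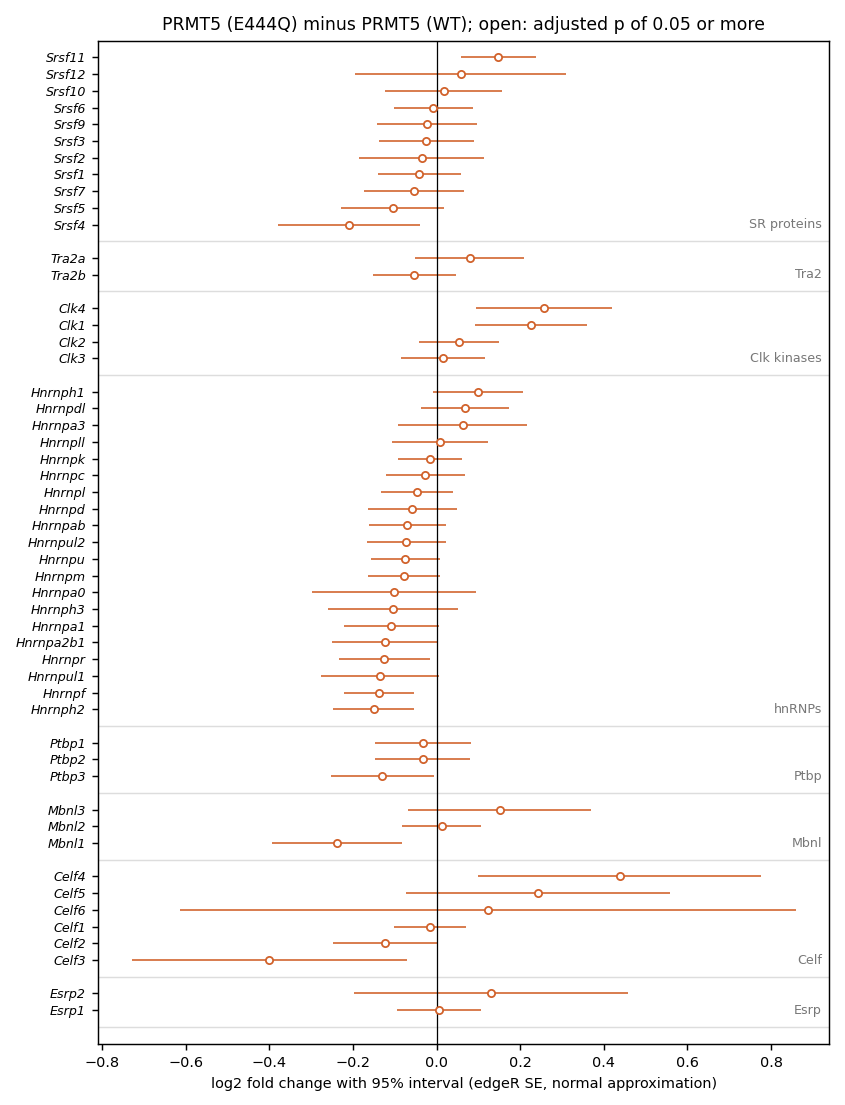
Log2 fold change of each splicing regulator, E444Q minus WT, with its 95% interval (edgeR standard error, normal approximation), 3 libraries in each group, ordered within each family. No dot is filled, since none passed an adjusted p of 0.05, and 16 of the 20 hnRNPs lie left of 0. The median over the 7247 genes of at least 30 CPM was also below 0, at -0.024.

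Other splicing genes, chosen as a list of 86 with 85 tested, gave the counts beside which those of the members may be read. With WT 46 were higher and 19 lower (median log2 fold change 0.22), and with E444Q 40 were higher and 22 lower (0.14). Over all genes tested 29.9% were higher and 27.9% lower with WT, and 29.5% and 26.5% with E444Q. Over genes of at least 30 CPM the shares were 40.5% and 36.6% with WT, and 37.7% and 37.4% with E444Q. Between the constructs the median log2 fold change of the list was -0.043. Of the 22 partners of SR proteins and U2AF, 11 were higher and 3 lower with WT, and of the 26 hnRNP-like proteins, 11 were higher and 10 lower. The 31 tissue-restricted or signal-dependent regulators had 21 higher and 5 lower. Of the 6 kinases and carriers of SR proteins tested, 3 were higher and 1 lower.

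Khdrbs2, a STAR-family regulator known from neurons, showed the largest rise of this list, from 0.507 ± 0.0716 CPM in 4OHT to 3.07 ± 0.0544 with E444Q and 3.79 ± 0.664 with WT (SD, n = 3, log2 fold change 2.60 and 2.90, edgeR adjusted p = 4.56e-08 and 1.44e-08). Rbm11, a tissue-restricted splicing factor, rose by 1.86 and 1.96 from 0.923 ± 0.33 CPM. Rbfox1, a regulator in neurons and muscle, was lower, at 1.70 ± 0.255 CPM in 4OHT and log2 fold changes of -1.62 and -1.31 (edgeR adjusted p = 0.000176 and 0.00103). Ybx3, a cold shock protein abundant in germ cells, fell by 0.81 with E444Q, from 111 ± 10.9 to 63.2 ± 2.02 CPM, and Pcbp4, a poly(C)-binding protein, by 0.79 with WT, from 120 ± 11.2 to 69.6 ± 3.6 CPM.

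The values above are sums over all transcripts of a gene. Many SR and hnRNP genes are known to limit their own protein by including poison exons, and in GENCODE vM21 42 of the 51 members (82.4%) have a transcript classed as a target of nonsense-mediated decay or as retaining an intron, where 58.0% of 16701 protein-coding genes tested do. For nonsense-mediated decay alone it was 60.8% against 25.3%. Counts per gene do not separate these transcripts from the coding ones, so a change in level here is not a change in protein. Near-identical copies (at least 90% identity over 500 bases) exist for 19 members. Those of Hnrnpa3, 35 in number, held more counts than the gene itself, 51.8, 84.2 and 79.9 CPM in the 3 groups against 40.7, 52.0 and 49.8 CPM, so its level is uncertain. Of the members, 30 overlap another gene, and the sources used here do not state whether counting used the strand.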

How the data were processed

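RNA-seq of 9 libraries of cultured mouse SSCs was used, with groups taken from the sample titles. The deposited values are whole-number gene counts without normalization, which the authors made by trimming paired reads with Trimmomatic 0.39 and BBmap, aligning them to GRCm38 with HISAT2 2.2.1 and quantifying genes with StringTie 2.2.1. The sources used here do not say how StringTie output became whole counts, whether strand was used or how multiply aligned reads were treated. A value of 4 was more common than 3 or 5 in all 9 libraries, so a read pair may weigh about 4 counts, and counts divided by 4 were tried as an alternative. A count of 3 corresponds to 0.0082 to 0.0381 CPM in these libraries, and such limits cover counting error only.

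Genes were filtered with filterByExpr (minimum count 10, minimum total 15), scaled by TMM and fitted in edgeR 4.0.16 (R 4.3.3) with a quasi-likelihood model over all 9 libraries with the group as its only factor. Benjamini-Hochberg adjustment ran over 22452 genes. The common biological coefficient of variation was 0.155. Intervals are the estimate with the normal 95% multiple of its standard error. Alternatives were RLE size factors, total counts, DESeq2 1.42.0, no filter, a fit to the 2 groups compared, a replicate block, counts divided by 4, a 1.5-fold limit and each library left out. Steps were tested on simulated counts.

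The members and all gene lists were chosen with earlier results of these data known. Members named with values were the 4 largest and 4 smallest changes past the threshold in each comparison (mean of at least 5 CPM), a set of textbook members, and the 2 largest and 2 smallest changes of the other splicing genes. Other members, such as Srsf11, Srsf4, Srsf5, Hnrnpf, Hnrnph2, Celf3 and Clk2, were named after their values were seen. Gene positions and transcript classes are from GENCODE vM21, where all 51 members were found, and copies were searched with BLAST 2.17.0. Levels between genes are CPM per kilobase of the median coding transcript. Promoter windows are from RefSeq (GRCm38.p6), with the window farthest upstream taken for each gene. Labels name no batch, so batch and group cannot be told apart. All E444Q libraries were deeper than the others, so for E444Q depth and group cannot be told apart either.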

Additional observations from a re-analysis of the deposited data

How the results depend on the processing

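Between the constructs, 0 members were called in the edgeR test, 5 higher and 7 lower when only the 2 groups compared were fitted, and 1 lower with DESeq2. Leaving out single libraries gave 0 to 3 higher and 0 to 2 lower. With at least 1.5-fold, E444Q minus 4OHT had 4 higher and 3 lower, and WT minus 4OHT 6 higher and 3 lower. For E444Q minus 4OHT, 10 were lower with RLE size factors and 10 with counts divided by 4, against 6. For WT minus 4OHT, leaving out single libraries gave 4 to 9 lower, against 7. The other counts of members stayed within 1.5 times. In all, 974 of 1071 log2 fold changes kept their direction and side of the threshold when the fit was changed, and 1283 of 1377 when a library was left out, and the cause of the other changes was not tested.

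Same-numbered libraries of different groups did not deviate together (correlations of -0.0884 to 0.0365 over 15418 genes), so the numbers were not taken as pairs. With the number as a replicate block, 0 members were called between the constructs, 27 were higher and 7 lower with E444Q, and 29 higher and 6 lower with WT.

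Some estimates near 0 changed direction. Under total counts these were, for E444Q minus WT, Celf1 (0.00755), Hnrnpk (0.00893), Srsf6 (0.0163) and Srsf9 (0.000413), for E444Q minus 4OHT, Clk3 (0.0651), Clk4 (0.0946), Esrp1 (0.0345), Mbnl3 (0.0156), Srsf2 (0.1) and Srsf4 (0.101), and for WT minus 4OHT, Clk3 (0.0255), Esrp1 (0.00491), Hnrnpul1 (0.0583) and Srsf5 (0.0166). Without the filter they were, for E444Q minus WT, Celf1 (0.0234), Hnrnpc (0.012), Hnrnpk (0.0237), Ptbp1 (0.00561), Ptbp2 (0.00614), Srsf2 (0.0021), Srsf3 (0.0147), Srsf6 (0.0303) and Srsf9 (0.0154), and for E444Q minus 4OHT, Clk3 (0.0145), Clk4 (0.0448), Srsf2 (0.0497) and Srsf4 (0.0501). RLE size factors turned Esrp1 (-0.00503) and Hnrnpll (-0.00149) for E444Q minus WT and Hnrnpl (-0.0145) for E444Q minus 4OHT. Counts divided by 4 turned Hnrnpl (-0.0157) for E444Q minus 4OHT and Srsf2 (-0.0114) for WT minus 4OHT.

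Leaving out single libraries turned these, with the range over the libraries left out. For E444Q minus WT they were Celf1 (-0.0439 to 0.0027), Celf6 (-0.106 to 0.305), Esrp1 (-0.0232 to 0.051), Hnrnpll (-0.0258 to 0.053), Mbnl2 (-0.00781 to 0.0539), Ptbp2 (-0.0596 to 0.00754), Srsf10 (-0.000805 to 0.05), Srsf12 (-0.0776 to 0.17), Srsf2 (-0.0818 to 0.0149), Srsf6 (-0.0332 to 0.034) and Srsf9 (-0.0728 to 0.011). For E444Q minus 4OHT they were Clk4 (-0.107 to 0.0596), Hnrnpl (-0.0249 to 0.0352), Srsf2 (-0.0901 to 0.108) and Srsf4 (-0.119 to 0.101), and for WT minus 4OHT Hnrnpul1 (-0.122 to 0.0674) and Srsf2 (-0.0574 to 0.14).

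Scaling by total counts moved summed levels by more than 1 SD. In 4OHT, E444Q and WT these were then 188, 237 and 216 CPM for the Clk kinases, 6296, 7832 and 8109 for hnRNPs, and 579, 596 and 612 for the Ptbp genes. In E444Q and WT they were 2386 and 2396 for SR proteins and 331 and 326 for the Tra2 genes. In 4OHT and E444Q they were 216 and 152 for the Mbnl genes, 258 and 386 for the Celf genes, and 71.6 and 72.8 for the Esrp genes.

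The 5 widest standard errors in each comparison were those of Celf3, Celf4, Celf5, Celf6 and Esrp2, and the part of depth in them was not tested. Markers of feeder fibroblasts and macrophages differ in all 3 comparisons, and the levels of the splicing regulators in those cells are not known from these libraries.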
